A study of Homo sapiens with 18 samples.

Results

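The 36 genes described here encode the kinases, checkpoint proteins, kinetochore parts, motors and midzone proteins that carry a cell through mitosis. They were chosen by name from a list of 37 genes, and the only value asked of them was an average of 1 TPM or more (transcripts scaled to a fixed sum in each library) across all 18 libraries. All 36 listed genes that were found among the 45372 symbols of the table passed, and *KIF23* was not analysed here. The list holds 8 entry kinases and cyclins, 7 genes of the checkpoint and of anaphase onset, 7 kinetochore genes, 9 genes of the spindle and of mitotic chromosomes, and 5 genes of the spindle midzone and cytokinesis. RNA was measured in MV4-11 and THP1, 2 acute myeloid leukemia (AML) cell lines that both carry a rearranged *KMT2A* gene. Each line was given DMSO, the vehicle, or 50 nM IACS-010759 (IACS), an inhibitor of mitochondrial complex I, for 8 h or for 24 h, with 3 libraries in each of the 6 groups. The time of a DMSO library is not given in the labels, so the same 3 DMSO libraries of a line stood against both times of IACS. Each line is a single model, and the 3 libraries of a group are described by the study as independent replicates.

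In mitosis, cyclin-dependent kinase 1 with cyclin B drives entry, and Aurora and Polo-like kinases build the spindle. The kinetochore joins each chromosome to spindle microtubules, and the spindle checkpoint holds the anaphase-promoting complex back until every kinetochore is attached. Release of that complex, with CDC20 as its activator, destroys cyclin B and securin, after which the midzone forms and the cell divides. Most of these genes are transcribed in G2 and M phase and are nearly silent in resting cells, so that their RNA in a culture reports on dividing cells. In bulk RNA, fewer cells in mitosis and less RNA per cell cannot be told apart.

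The values are TPM, in which every library has the same sum, and they carry no depth. The noncoding RNAs *RPPH1*, *RMRP*, *RN7SK*, *RN7SL2* and *RN7SL1* together held 39.6% to 60.1% of that sum. The comparisons were also run without them, but their part in the differences between libraries was not tested. MV4-11 IACS 8 h replicate 3 had the highest value of its group for 36 of 36 mitotic genes and for 86.9% of all genes, and THP1 DMSO replicate 3 had the lowest of its group for 36 of 36 and for 86.3%. THP1 IACS 8 h replicate 2 was likewise highest for 36 of 36 and 91.5%, and THP1 IACS 24 h replicate 3 lowest for 36 of 36 and 87.5%. For this reason levels are also given after median-of-ratios scaling. It divides each library of a line by its median ratio to the geometric mean of the line's libraries. In comparisons between the lines, all 18 libraries were scaled together in the same way. Scaling took the median coefficient of variation of the mitotic genes from 17.6% to 5.96% in MV4-11 at 8 h and from 16.9% to 5.48% in THP1 with DMSO. It lowered it in 5 of the 6 groups, the exception being MV4-11 at 24 h, where it went from 10% to 10.5%. Of 12 markers of AML lines, 9 were above 10 TPM in every library of both lines, among them *SPI1* at 85.6 to 147 TPM. The others were *ITGAM*, at 0.78 to 1.52 TPM in MV4-11, *MPO*, at 0.73 to 2.52 TPM in THP1, and *MEIS1*, at 0 to 0.028 TPM in THP1. Of 15 markers of other cell types, *PECAM1*, which monocytes also express, was the one above 4 TPM in any library.

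Which mitotic genes do the untreated lines express, and at what level? *TOP2A*, which untangles and compacts chromosomes, was at 204, 193 and 170.1 TPM in the 3 MV4-11 DMSO libraries and at 255, 216 and 182 TPM in THP1. *CDC20* was at 116, 124 and 107 TPM in MV4-11 and at 599, 606 and 536 TPM in THP1, the highest level of the 36 genes in that line. At the other end stood *CDC25C*, the phosphatase that activates CDK1, at 9.71, 9.26 and 7.81 TPM in MV4-11 and 11.3, 11.6 and 9.45 TPM in THP1. TPM are per transcript length, so these levels can be set side by side between genes. The summed level of the 36 genes was 1993 ± 147 TPM (SD, n = 3) in MV4-11, and the THP1 libraries summed to 3144.9, 2854.5 and 2378.9 TPM. A large part of the difference between these sums was that of *CDC20* alone.

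THP1 exceeded MV4-11 in DMSO for 30 of the 36 genes, with a median log2 difference of 0.27 against -0.011 over all 12555 genes tested in both lines. Calls rested on limma, run on log2(TPM + 1), and needed both a p below 0.05 after Benjamini-Hochberg adjustment and more than a 1.5-fold difference. On that rule 8 of 36 were higher in THP1 and 2 were higher in MV4-11. The background was 15.4% of all genes higher in THP1 and 16.1% higher in MV4-11, and the share called higher in MV4-11 was below it. The share called higher in THP1 was above it only through genes just past the size limit. Those genes lost their calls after scaling, as given below. The midzone genes (5 of 5) and the spindle genes (9 of 9) all had THP1 on the higher side, and none of the midzone genes was called.

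Among the genes of anaphase onset, *CDC20* (GRCh38, chromosome 1, 43358981 to 43363203) differed most. Its 3 THP1 values lay far above its 3 MV4-11 values, at a log2 difference of 2.32 (SE 0.20, 4.98-fold, limma adjusted p = 1.51e-08). *TTK* (chromosome 6, 80003887 to 80042527), the kinase that starts spindle checkpoint signalling, was at 27.5, 25.8 and 23.5 TPM in MV4-11 and 62.0, 51.6 and 45.7 TPM in THP1, a log2 difference of 1.02 (SE 0.16, limma adjusted p = 4.59e-05). *UBE2C* (chromosome 20, 45812576 to 45816957), the ubiquitin-conjugating enzyme that works with the same complex as CDC20, went the opposite way. It was at 113, 122 and 105 TPM in MV4-11 and 68.9, 62.4 and 58.1 TPM in THP1, a log2 difference of -0.83 (SE 0.17, limma adjusted p = 0.000526). The groups overlapped for neither gene. The checkpoint genes *BUB1B* and *MAD2L1* had log2 differences of 0.013 and -0.025, with limma adjusted p of 0.964 and 0.914.

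The 2 Aurora kinases also parted. *AURKB* (chromosome 17, 8204733 to 8210600), the kinase of the chromosomal passenger complex that corrects faulty attachments, was at 51.0, 50.4 and 46.4 TPM in MV4-11 and at 24.9, 23.4 and 15.3 TPM in THP1, a log2 difference of -1.21 (SE 0.22, limma adjusted p = 0.000196). *AURKA*, which acts at spindle poles, was at 52.6, 49.4 and 47.2 TPM in MV4-11 and 74.2, 67.8 and 60.5 TPM in THP1, a log2 difference of 0.43 that passed on p (limma adjusted p = 0.0384) but not on size. *BIRC5* (survivin), a partner of AURKB in the passenger complex, was at 37.9, 39.2 and 39.0 TPM in MV4-11 and 48.4, 46.1 and 36.9 TPM in THP1. For *BIRC5* the groups overlapped, and its log2 difference was 0.16 (SE 0.16, limma adjusted p = 0.443). None of the other kinases and cyclins was called. *CDK1* was at 52.7, 48.9 and 46.3 TPM in MV4-11 and 75.9, 64.3 and 55.2 TPM in THP1, and *CCNB1*, which encodes its cyclin B1 partner, at 91.2, 84.9 and 76.2 TPM and 114, 100.03 and 91.4 TPM. *PLK1*, the Polo-like kinase, was at 40.1, 44.4 and 34.9 TPM in MV4-11 and 43.0, 47.0 and 34.2 TPM in THP1. The groups of *PLK1* overlapped, those of *CDK1* and *CCNB1* did not, and none of the 3 genes was called (limma adjusted p = 0.0552 for *CDK1*, 0.243 for *CCNB1* and 0.865 for *PLK1*).

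Within the kinetochore, 3 of 7 genes were called higher in THP1 and 0 lower. The NDC80 complex, which binds microtubules, is built from the products of *NDC80*, *NUF2*, *SPC24* and *SPC25* in equal number, and its 4 RNAs differed between the lines by unequal amounts. *NUF2* was at 23.5, 20.2 and 18.3 TPM in MV4-11 and 55.5, 44.8 and 33.2 TPM in THP1 (log2 difference 1.05, SE 0.18, limma adjusted p = 0.000117). *SPC25* was at 14.4, 14.3 and 11.0 TPM in MV4-11 and 26.4, 26.5 and 18.5 TPM in THP1 (log2 difference 0.79, SE 0.21, limma adjusted p = 0.00435). *NDC80* was at 28.4, 27.8 and 24.6 TPM in MV4-11 and 47.8, 43.0 and 31.5 TPM in THP1 (log2 difference 0.56, limma adjusted p = 0.0153), just under the size asked. *SPC24* was at 45.0, 47.8 and 46.9 TPM in MV4-11 and 52.8, 48.4 and 39.1 TPM in THP1 (log2 difference -0.0039, SE 0.17, limma adjusted p = 0.988). The lines thus did not overlap for the first 3 genes and overlapped for *SPC24*. Differences between these genes were not tested. *CENPE*, a kinetochore motor, was higher in THP1 by 0.63 on the log2 scale (SE 0.19, limma adjusted p = 0.00945). *CENPA*, the histone H3 variant that marks centromeres, was at 35.1, 33.3 and 31.2 TPM in MV4-11 and 27.9, 25.1 and 18.8 TPM in THP1. All 3 THP1 values lay below, at a log2 difference of -0.47 (SE 0.16, limma adjusted p = 0.0249) that was under the 1.5-fold asked.

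Among motors and spindle proteins, *KIF4A*, *ASPM* and *HMMR* were called higher in THP1 at log2 differences of 0.60, 0.59 and 0.59. These 3 lay just past the limit of 0.585 and fell to 0.58, 0.58 and 0.57 after scaling, which ended their calls and left 5 higher and 2 lower. *KIF11*, the motor that pushes spindle poles apart, was at 53.8, 52.1 and 45.4 TPM in MV4-11 and 73.3, 66.1 and 51.9 TPM in THP1. *TPX2*, which activates AURKA on the spindle, was at 98.4, 98.3 and 78.0 TPM in MV4-11 and 129, 121 and 101 TPM in THP1. *BUB1*, a checkpoint kinase, was at 57.6, 58.9 and 46.4 TPM in MV4-11 and 77.9, 68.3 and 56.3 TPM in THP1, and *PRC1*, which bundles midzone microtubules, at 58.8, 60.5 and 54.3 TPM and 71.9, 62.9 and 50.9 TPM. None of the 4 was called, and of these only the groups of *TPX2* did not overlap. Leaving out MV4-11 DMSO replicate 3 lowered the number called from 10 to 6, and leaving out THP1 DMSO replicate 3 raised it to 14.

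**Figure D1:**
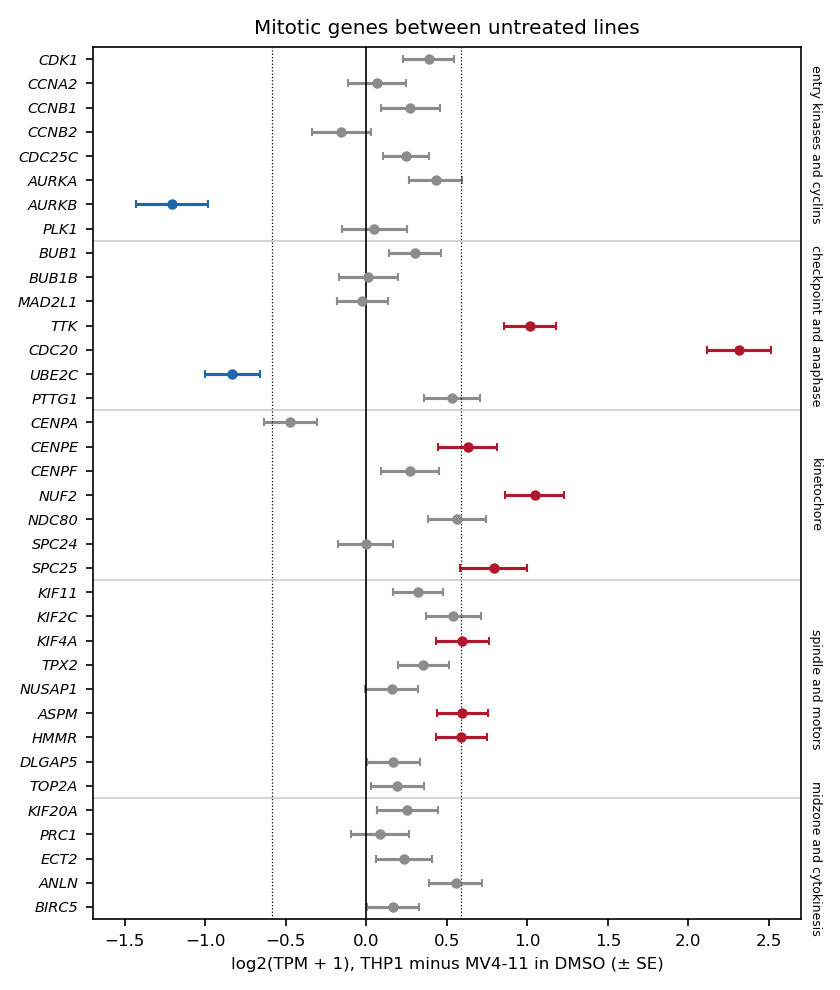
Difference in log2(TPM + 1) between THP1 and MV4-11 in DMSO for the 36 mitotic genes, ordered by role, with bars for the standard error (3 libraries a line) and dotted lines at 1.5-fold. Red points were called higher in THP1 (8 genes), blue points higher in MV4-11 (2 genes) and grey points were not called; *CDC20* stands farthest to the right at 2.32 and *AURKB* farthest to the left at -1.21.

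Genes of this kind are known to be read by promoters with CCAAT boxes, bound by NF-Y, and with a cell cycle homology region (CHR) of the letters TTTGAA, through which the DREAM complex silences them in resting cells and MYB and FOXM1 complexes activate them in G2. Windows around RefSeq start sites of the GRCh38.p14 build were used for 31 of the 36 genes, and those of *AURKA*, *BIRC5*, *TPX2*, *TTK* and *UBE2C* were not analysed here. In windows from 250 bases before to 50 bases after the start, CCAAT (or ATTGG, its other strand) stood in 25 of 31 genes, or 80.6%, against 39.7% of 27305 genes with a window and 43.5% of the 8819 that were also tested in both lines. TTTGAA (or TTCAAA) stood in 22 of 31, or 71.0%, against 18.2% and 13.2%. Both stood in 18 of 31 genes, or 58.1%, against 7.26% and 5.6%. The first base of TTTGAA lay at a median of 28 bases before the start and that of CCAAT at a median of 87 bases before it (positions -28 and -87). These letters are a description of the windows and not a test of binding.

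*CDC20* and *NUF2* were the most raised in THP1, and *CENPA* and *SPC25* were each the lowest gene in a comparison of IACS with DMSO. *SPC24* was taken as the partner of *SPC25* in the NDC80 complex and was not called in any comparison. The windows of these 5 genes are shown, from 250 bases before to 30 bases after the start. They are on GRCh38.p14 at chr1:43358731-43359010 (plus strand) for *CDC20*, chr1:163321704-163321983 (plus) for *NUF2*, chr2:168890401-168890680 (minus) for *SPC25*, chr19:11155753-11156032 (minus) for *SPC24* and chr2:26785806-26786085 (plus) for *CENPA*. Capitals mark CCAAT and TTTGAA on either strand.
CDC20: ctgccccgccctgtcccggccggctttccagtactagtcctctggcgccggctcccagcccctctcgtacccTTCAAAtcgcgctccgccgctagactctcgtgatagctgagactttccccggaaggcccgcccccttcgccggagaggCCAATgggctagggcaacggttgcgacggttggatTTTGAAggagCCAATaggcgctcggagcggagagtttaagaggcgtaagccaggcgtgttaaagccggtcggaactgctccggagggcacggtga
NUF2: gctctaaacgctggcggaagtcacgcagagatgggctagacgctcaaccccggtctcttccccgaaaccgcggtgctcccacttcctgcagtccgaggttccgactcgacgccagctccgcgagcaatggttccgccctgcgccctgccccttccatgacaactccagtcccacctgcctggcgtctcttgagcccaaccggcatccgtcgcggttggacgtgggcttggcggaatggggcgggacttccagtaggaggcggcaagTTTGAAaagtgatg
SPC25: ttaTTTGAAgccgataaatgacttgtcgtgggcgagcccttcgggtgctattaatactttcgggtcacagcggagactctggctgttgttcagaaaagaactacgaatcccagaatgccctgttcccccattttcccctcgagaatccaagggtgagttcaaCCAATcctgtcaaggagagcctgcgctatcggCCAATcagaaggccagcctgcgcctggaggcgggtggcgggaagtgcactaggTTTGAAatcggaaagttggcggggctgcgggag
SPC24: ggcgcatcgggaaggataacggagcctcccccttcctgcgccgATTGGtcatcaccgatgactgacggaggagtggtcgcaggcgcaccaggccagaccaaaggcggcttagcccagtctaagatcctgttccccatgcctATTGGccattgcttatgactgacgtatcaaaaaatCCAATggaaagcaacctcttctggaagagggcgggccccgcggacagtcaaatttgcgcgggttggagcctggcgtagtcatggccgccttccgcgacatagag
CENPA: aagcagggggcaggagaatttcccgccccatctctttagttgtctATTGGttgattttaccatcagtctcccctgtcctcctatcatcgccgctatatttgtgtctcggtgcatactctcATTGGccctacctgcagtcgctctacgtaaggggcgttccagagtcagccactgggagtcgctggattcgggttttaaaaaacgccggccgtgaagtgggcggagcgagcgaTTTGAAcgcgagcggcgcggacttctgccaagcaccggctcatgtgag

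*CDC20*, *SPC25* and *CENPA* held both sets of letters, *SPC24* held CCAAT alone, and *NUF2* held TTTGAA alone, 17 bases after its start. Each window begins upstream of the gene's first exon for its RefSeq start and runs into that exon.

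In MV4-11, 8 h of IACS left all 36 mitotic genes with a lower mean than DMSO, while 33.1% of all genes tested were lower. The differences were small. The median was -0.215 on the log2 scale against 0.061 for all genes, and -0.284 against -0.0051 after scaling. By limma 0 of 36 were called on adjusted p with a change of more than 1.5-fold, where the background was 0.0148% of 13542 genes, and 0 of 36 on unadjusted p with the same size, where it was 0.672%. After scaling, all 3 IACS libraries lay below all 3 DMSO libraries for 29 of 36 genes, against 12.2% of all genes. The 36 genes vary together across libraries and are not 36 separate observations. Without any 1 library this count was 29 to 34, where 15.1% to 20.4% of all genes separated. It was 34 without IACS 8 h replicate 3, the library with the highest values, where 18.3% did. The summed level showed the same separation, with scaled sums of 2076.5, 2092.9 and 2005.3 TPM in DMSO and 1656.2, 1588.7 and 1815.3 TPM at 8 h. As deposited the sums overlapped, because replicate 3 at 8 h reached 2150.1 TPM where the other 2 libraries had 1506.8 and 1550.6 TPM.

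All 5 roles took part, with median log2 differences of -0.23 for the entry kinases and cyclins, -0.24 for the checkpoint genes, -0.20 for the kinetochore, -0.20 for the spindle and -0.21 for the midzone. The lowest was *CENPA*. As deposited it was at 21.9, 21.8 and 27.6 TPM at 8 h, all below the 31.2 to 35.1 TPM of DMSO, a log2 difference of -0.47 (SE 0.12, limma adjusted p = 0.687). After scaling it was at 34.7, 34.0 and 34.3 TPM in DMSO and 24.1, 22.4 and 23.3 TPM at 8 h. The scaled log2 difference was -0.54 (SE 0.054), with a limma adjusted p of 0.0153, but its size stayed under 1.5-fold. With no limit on size it was the 1 mitotic gene called lower, where 0.0222% of all genes were.

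*PLK1* came next, at 24.7, 30.1 and 41.7 TPM at 8 h (log2 difference -0.32, SE 0.17), and then *CDC20*, at 79.1, 75.9 and 130.3 TPM (-0.32, SE 0.21). As deposited replicate 3 lay within the DMSO range for *PLK1* and above it for *CDC20*, and after scaling it lay below DMSO for both, at 35.2 and 110.0 TPM. The smallest differences were those of *SPC24* at 40.6, 39.3 and 52.9 TPM (-0.083), of the microtubule-depolymerizing motor *KIF2C* at 49.6, 50.0 and 71.8 TPM (-0.089) and of *AURKB* at 38.7, 41.0 and 60.6 TPM (-0.10). The groups of these 3 genes overlapped, also after scaling. *CDK1* was at 38.4, 39.2 and 50.0 TPM, *CCNB1* at 61.1, 59.0 and 98.3 TPM and *AURKA* at 35.2, 35.1 and 55.8 TPM. *BUB1* was at 41.6, 44.7 and 56.7 TPM, *NDC80* at 22.3, 22.5 and 30.5 TPM and *KIF11* at 40.1, 41.0 and 48.8 TPM. Replicate 3 was the highest library in each of these 6 genes, and all 6 separated from DMSO after scaling. *TPX2* was at 69.0, 72.9 and 94.2 TPM, *TOP2A* at 145, 147 and 196 TPM, *PRC1* at 46.2, 45.8 and 70.9 TPM and *BIRC5* at 27.6, 30.2 and 43.6 TPM. Of these last 4, *PRC1* still overlapped DMSO after scaling.

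**Figure D2:**
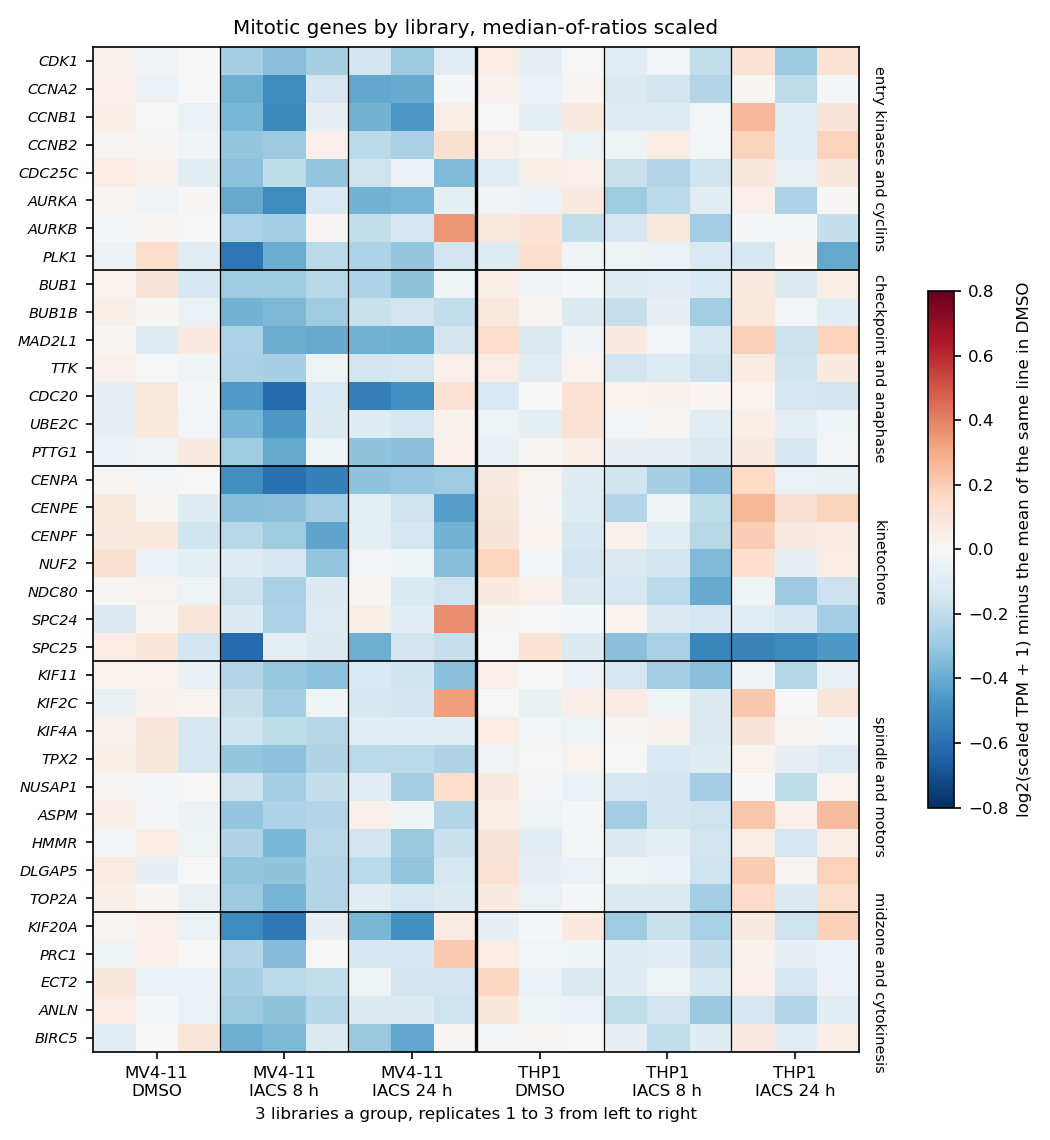
Level of the 36 mitotic genes in each of the 18 libraries, as log2(scaled TPM + 1) minus the mean of the same line in DMSO, with rows grouped by role and 3 columns a group. The MV4-11 8 h columns are blue for nearly every gene, the MV4-11 24 h columns paler, with the third library above 0 for several genes, and in THP1 the 24 h columns lie on both sides of 0 with *SPC25* low in all 3 libraries.

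At 24 h in MV4-11 the mitotic genes lay between DMSO and 8 h. Of 36 genes 26 had a lower mean than DMSO as deposited, with a median of -0.10 against 0.077 for all genes, and 33 of 36 after scaling, with a median of -0.19. By limma 0 of 36 were called, on adjusted p (background 0.0886%) or on unadjusted p (background 1.99%). After scaling, 12 of 36 had all 3 IACS libraries below DMSO, against 13.2% of all genes. Those 12 were *CDK1*, *AURKA*, *PLK1*, *BUB1B*, *MAD2L1*, *CENPA*, *KIF11*, *TPX2*, *HMMR*, *DLGAP5*, *TOP2A* and *ANLN*. Without IACS 24 h replicate 3 the count was 26, where 29.5% of all genes separated. Without any other library it was 12 to 18, where 15.5% to 17.9% did.

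*CENPA* was again among the lowest, at 28.6, 28.9 and 28.3 TPM, a log2 difference of -0.21 (SE 0.12, limma adjusted p = 0.510). Its scaled values of 27.3, 27.6 and 28.0 TPM lay between those of 8 h and DMSO without overlapping either. The scaled log2 difference was -0.30 (limma adjusted p = 0.0293), and with no limit on size *CENPA* was called lower where 1.6% of all genes were. *MAD2L1*, the checkpoint protein that holds CDC20, was at 26.0, 23.1 and 24.4 TPM in DMSO and 20.2, 19.9 and 23.0 TPM at 24 h (log2 difference -0.21, SE 0.12), and *CDC20* was at 85.5, 89.1 and 131 TPM (-0.21, SE 0.21). At the upper end were *SPC24* at 52.1, 47.2 and 63.4 TPM (0.21), *KIF2C* at 59.4, 58.3 and 79.4 TPM (0.12) and *AURKB* at 46.5, 48.5 and 66.1 TPM (0.11). In these 3 and in *CDC20*, replicate 3 was the highest library by a wide margin, and without it the values of *AURKB* and *KIF2C* were -0.051 and -0.025.

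Values of the other genes at 24 h lay within or close to the range of DMSO. *CDK1* was at 47.9, 43.5 and 48.4 TPM, *CCNB1* at 69.8, 65.8 and 91.2 TPM, *AURKA* at 41.3, 41.5 and 49.2 TPM and *PLK1* at 36.01, 34.5 and 37.2 TPM. *BUB1* was at 49.2, 46.5 and 55.1 TPM, *NDC80* at 29.5, 26.7 and 24.9 TPM, *KIF11* at 50.0, 48.7 and 41.5 TPM and *TPX2* at 84.8, 85.2 and 80.3 TPM. *TOP2A* was at 193, 185 and 182 TPM, *PRC1* at 57.3, 57.2 and 70.3 TPM and *BIRC5* at 34.0, 31.1 and 41.1 TPM. As deposited all 11 of these genes overlapped DMSO, and the lowest limma adjusted p among them was 0.717.

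Set directly against each other, the 24 h libraries of MV4-11 had the higher mean for 36 of 36 genes, with a median of 0.12 against 0.017 for all genes. The largest differences were *SPC24* (0.29, SE 0.14), *UBE2C* (0.27, SE 0.16) and *CENPA* (0.27, SE 0.12), and the smallest *SPC25* (0.053), *PTTG1*, which encodes securin (0.064), and *MAD2L1* (0.068). None of the 36 was called by limma, where the background was 0% on adjusted p and 0.465% on unadjusted p. After scaling, 8 of 36 had all 24 h libraries above all 8 h libraries, against 5.81% of all genes. The 8 included *CENPA*, *ASPM*, *TOP2A* and *ANLN*. Without IACS 8 h replicate 3 the count was 20, where 12.1% of all genes separated, and it was 14 without IACS 24 h replicate 2 and 14 without replicate 3, where 8.3% and 19.1% of all genes separated.

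In THP1, 8 h of IACS also left all 36 genes with a lower mean than DMSO, but here 83.6% of all genes tested were lower. The median was -0.25 as deposited against -0.12 for all genes. Scaling moved the median of all genes from -0.12 to 0.0020, and that of the mitotic genes to -0.12, with 34 of 36 below 0. By limma 0 of 36 were called, on adjusted p (background 0.0144% of 13928 genes) or on unadjusted p (background 0.761%). After scaling, 17 of 36 had all 3 IACS libraries below DMSO, against 6.46% of all genes. Without any 1 library the count was 18 to 21, where 9.08% to 15.3% of all genes separated. The scaled sums were 2618.9, 2566.0 and 2619.5 TPM in DMSO and 2471.8, 2464.5 and 2349.1 TPM at 8 h, which did not overlap.

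The kinetochore had the lowest median of the 5 roles in THP1 at 8 h, -0.34 as deposited and -0.205 after scaling. *SPC25* was lowest, at 16.2, 21.1 and 12.5 TPM against 26.4, 26.5 and 18.5 TPM in DMSO (log2 difference -0.50, SE 0.20, limma adjusted p = 0.941). Its scaled values were 22.0, 23.9 and 20.4 TPM in DMSO and 17.2, 18.2 and 15.0 TPM at 8 h, which did not overlap. *CENPA* followed at 18.5, 21.1 and 14.5 TPM (-0.39, SE 0.20), and *KIF11* at 50.6, 56.6 and 39.0 TPM (-0.38, SE 0.18). Both separated from DMSO after scaling. The smallest differences were *CDC20* at 522, 644 and 459 TPM (-0.11), *CCNB2*, a B-type cyclin, at 41.4, 54.7 and 37.2 TPM (-0.14), and *KIF4A*, a chromosome-bound motor, at 28.0, 35.1 and 22.8 TPM (-0.15). After scaling the differences of *CDC20* and *CCNB2* were at or above 0, at 0.026 and 5.34e-06.

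*AURKA* was at 48.5, 63.2 and 49.6 TPM at 8 h in THP1 and *NDC80* at 32.3, 37.4 and 23.6 TPM, and both separated from DMSO after scaling. *CDK1* was at 53.3, 69.1 and 44.1 TPM, *CCNB1* at 83.7, 103 and 78.2 TPM, *AURKB* at 16.5, 23.9 and 13.2 TPM and *PLK1* at 35.1, 43.0 and 29.5 TPM. *BUB1* was at 54.9, 68.4 and 48.1 TPM, *TPX2* at 103, 117 and 85.3 TPM and *TOP2A* at 175, 216 and 139.6 TPM. *PRC1* was at 50.5, 62.8 and 41.99 TPM and *BIRC5* at 36.6, 41.1 and 31.8 TPM. Replicate 2 was the highest of the 3 in each of these genes, and *BUB1*, *TOP2A*, *PRC1* and *BIRC5* separated from DMSO after scaling while *CDK1*, *CCNB1*, *AURKB*, *PLK1* and *TPX2* did not.

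**Figure D3:**
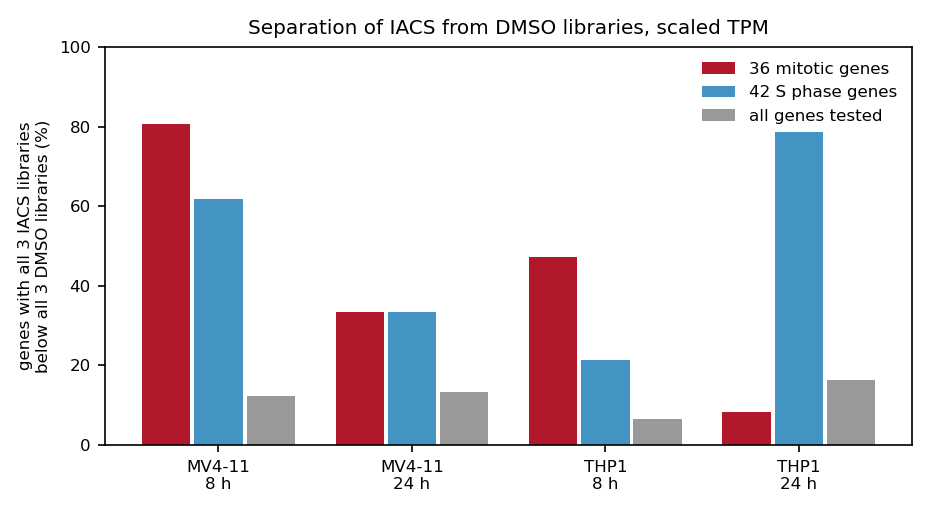
Share of genes (%) for which all 3 IACS libraries lay below all 3 DMSO libraries after median-of-ratios scaling, for the 36 mitotic genes (red), the 42 S phase genes (blue) and all genes tested (grey). Mitotic genes stand above the bar of all genes at 8 h in both lines and below it in THP1 at 24 h (3 of 36 against 16.3%), where the S phase bar is highest (33 of 42).

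At 24 h in THP1 the mitotic genes as a group lay close to their DMSO level relative to other genes. As deposited 33 of 36 had a lower mean than DMSO, yet 72.8% of all genes did, and the medians were -0.13 and -0.12. After scaling the median was -0.011 and 20 of 36 were below 0. By limma 0 of 36 were called on adjusted p (background 0.0431%) and 1 of 36 on unadjusted p (background 2.2%), which was *SPC25*. After scaling, 3 of 36 lay wholly below DMSO (*SPC24*, *SPC25* and *ANLN*), against 16.3% of all genes, and 1 lay wholly above it (*CENPE*). Without IACS 24 h replicate 1 the count below was 8, where 19.9% of all genes lay below, and without DMSO replicate 3 it was 6, where 24% did. Without any other library it was 3 or 4, where 18.8% to 23.1% did. Without IACS 24 h replicate 2, 13 of 36 lay wholly above DMSO, where 19.5% of all genes did, and without DMSO replicate 1 it was 5, where 15.4% did.

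*SPC25*, whose product helps to hold the NDC80 complex to the inner kinetochore, was the lowest. It was at 15.0, 17.0 and 13.2 TPM at 24 h, all below the 18.5 to 26.5 TPM of DMSO, a log2 difference of -0.615 (SE 0.20, 0.653-fold, limma adjusted p = 0.495). With the replicate number as a block, the limma adjusted p was 0.00550 and *SPC25* was the 1 mitotic gene called lower, where 1.73% of all genes were. Same-numbered libraries deviated together in this comparison, at correlations of 0.146, 0.157 and 0.324 across genes. Scaled values were 14.9, 15.1 and 15.8 TPM at 24 h, against 20.4 to 23.9 TPM in DMSO, a log2 difference of -0.50 (SE 0.083, limma adjusted p = 0.0224). With no limit on size, *SPC25* was called lower after scaling where 2.74% of all genes were. In MV4-11 *SPC25* was at 14.4, 14.3 and 11.0 TPM in DMSO, at 7.72, 12.5 and 14.8 TPM at 8 h and at 10.6, 12.7 and 11.97 TPM at 24 h. Those groups overlapped, and the difference between lines in the 24 h response of *SPC25* was -0.46 (SE 0.30, limma adjusted p = 0.705). *SPC24*, which pairs with SPC25, was at 41.4, 44.04 and 30.04 TPM at 24 h in THP1 (log2 difference -0.28, SE 0.19, limma adjusted p = 0.658).

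**Figure D4:**
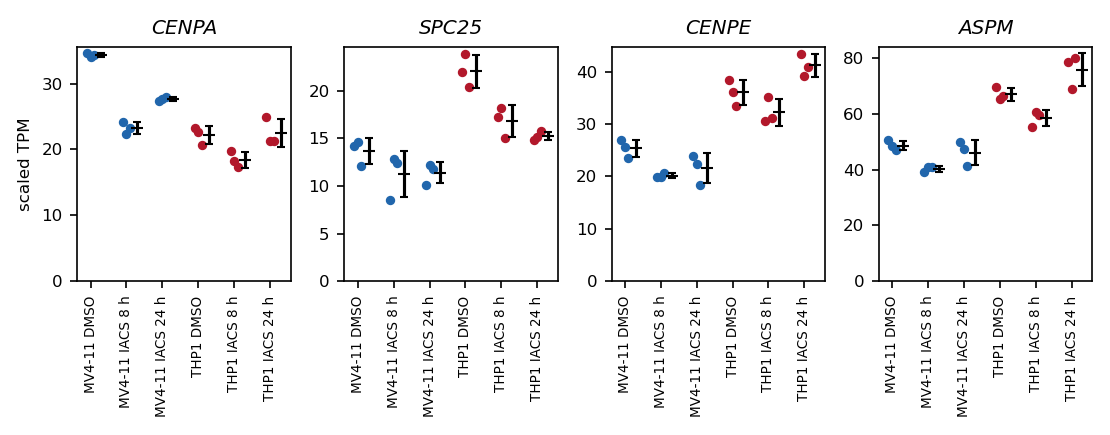
Scaled TPM of *CENPA*, *SPC25*, *CENPE* and *ASPM* in every library (points) beside the mean and SD of each group of 3 (black bars), MV4-11 in blue and THP1 in red. *CENPA* separates from DMSO at both times in MV4-11, *SPC25* stays low at 24 h in THP1, and *CENPE* and *ASPM* in THP1 are lower at 8 h than at 24 h.

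*PLK1* at 24 h in THP1 was at 35.4, 43.6 and 24.1 TPM (log2 difference -0.29, SE 0.22) and overlapped DMSO. The upper end held *CENPE* at 43.9, 43.9 and 34.3 TPM (0.073), *ASPM*, a spindle pole protein, at 79.2, 77.3 and 67.2 TPM (0.056), and *DLGAP5*, which stabilizes kinetochore fibres, at 51.0, 49.7 and 41.9 TPM (0.019). Without THP1 DMSO replicate 3, the lowest DMSO library, these 3 were at -0.089, -0.066 and -0.12. *CDK1* was at 66.2, 55.3 and 54.7 TPM, *CCNB1* at 115, 99.8 and 85.9 TPM, *AURKA* at 65.4, 59.3 and 53.3 TPM and *AURKB* at 19.5, 21.5 and 14.2 TPM. *BUB1* was at 66.9, 65.0 and 54.6 TPM, *CDC20* at 559, 553 and 411 TPM, *CENPA* at 25.1, 23.8 and 17.81 TPM and *NDC80* at 37.1, 34.3 and 28.0 TPM. All 8 overlapped DMSO. *KIF11* was at 58.5, 56.3 and 47.5 TPM, *TPX2* at 113, 117 and 85.4 TPM, *TOP2A* at 227, 209.8 and 187 TPM, *PRC1* at 59.3, 61.4 and 46.7 TPM and *BIRC5* at 43.4, 42.7 and 35.5 TPM, which overlapped DMSO too.

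Between 8 h and 24 h in THP1, 32 of 36 genes had the higher mean at 24 h, with a median of 0.125 against 0.0070 for all genes. By limma 0 of 36 were called, where the background was 0.00718% on adjusted p and 1.19% on unadjusted p. The largest differences were *ASPM* (0.39, SE 0.17), *CENPE* (0.36, SE 0.20) and *KIF20A*, a midzone motor (0.29, SE 0.16), and the lowest *SPC25* (-0.11), *CDC20* (-0.093) and *PLK1* (-0.083). Scaled values of *ASPM* were 55.2, 60.6 and 59.6 TPM at 8 h and 78.5, 69.0 and 80.1 TPM at 24 h, and those of *CENPE* 30.5, 35.3 and 31.2 TPM at 8 h and 43.5, 39.2 and 41.0 TPM at 24 h. Both genes separated fully. After scaling and with no limit on size, these 2 were called higher at 24 h (limma adjusted p = 0.0364 for *ASPM* and 0.0476 for *CENPE*), where 0.872% of all genes were. All 24 h libraries lay above all 8 h libraries for 10 of 36 genes after scaling, against 10.2% of all genes. Without IACS 24 h replicate 2 that count was 25, where 18.8% of all genes separated. Without any other library it was 10 to 13, where 12.7% to 17% did.

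The difference between lines in the response to IACS was tested as an interaction over 12555 genes. At 8 h 0 of 36 mitotic genes were called, where the background was 0.00796% on adjusted p and 1.47% on unadjusted p. At 24 h 0 of 36 were called, where the background was 0.00796% and 4.02%. At 8 h the lowest values, toward a lower response in THP1, were *SPC25* (-0.30, SE 0.29), *NDC80* (-0.27, SE 0.25) and *NUF2* (-0.23, SE 0.26), and the highest *CDC20* (0.21, SE 0.28), *MAD2L1* (0.12) and *PLK1* (0.12). At 24 h they were *SPC24* (-0.49, SE 0.24, limma adjusted p = 0.697), *SPC25* (-0.46) and *AURKB* (-0.29), against *CENPE* (0.21), *MAD2L1* (0.17) and *DLGAP5* (0.15). The median of the 36 was -0.049 at 8 h and -0.037 at 24 h as deposited, but 0.17 and 0.19 after scaling, so its sign rests on the scaling. Scaling moved the median of all genes from -0.17 to 0.034 at 8 h and from -0.20 to 0.0095 at 24 h. The median of the 36 was thus above that of all genes on either scale. Over all alternatives, its distance from that of all genes was 0.0044 to 0.156 at 8 h and -0.00252 to 0.198 at 24 h.

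Genes of DNA replication, which act in the phase before, were set beside the mitotic genes. Against the median of all genes, 42 S phase genes were at -0.23 and -0.24 at 8 h and 24 h in MV4-11, where the mitotic genes were at -0.275 and -0.18. In THP1 the S phase genes were at -0.13 at 8 h and -0.27 at 24 h, where the mitotic genes were at -0.13 and -0.011. All 42 S phase genes had a lower mean than DMSO at 24 h in THP1, as did most of all genes tested. Wholly below DMSO after scaling were 33 of 42, against 16.3% of all genes. On adjusted p 0 of 42 were called by limma (background 0.0431%), and 2 on unadjusted p (background 2.2%). Library by library, the median of the mitotic genes minus that of all genes was 2.11, 2.07 and 2.04 on the log2 scale in THP1 DMSO, 1.93, 1.94 and 1.81 at 8 h and 2.14, 1.93 and 2.07 at 24 h. For S phase genes it was 1.70, 1.58 and 1.501 in DMSO and 1.35, 1.32 and 1.27 at 24 h, which did not overlap. At 8 h it was 1.554, 1.55 and 1.307 for S phase genes in THP1, which overlapped both DMSO and 24 h. In MV4-11 the mitotic genes were at 1.77, 1.73 and 1.74 in DMSO, 1.45, 1.43 and 1.56 at 8 h and 1.59, 1.54 and 1.68 at 24 h, with both times below DMSO in every library. The S phase genes of MV4-11 were at 1.6, 1.617 and 1.621 in DMSO. They were at 1.583, 1.471 and 1.336 at 8 h and 1.554, 1.499 and 1.484 at 24 h, also below DMSO in every library. The difference between the 2 lists was not tested.

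**Figure D5:**
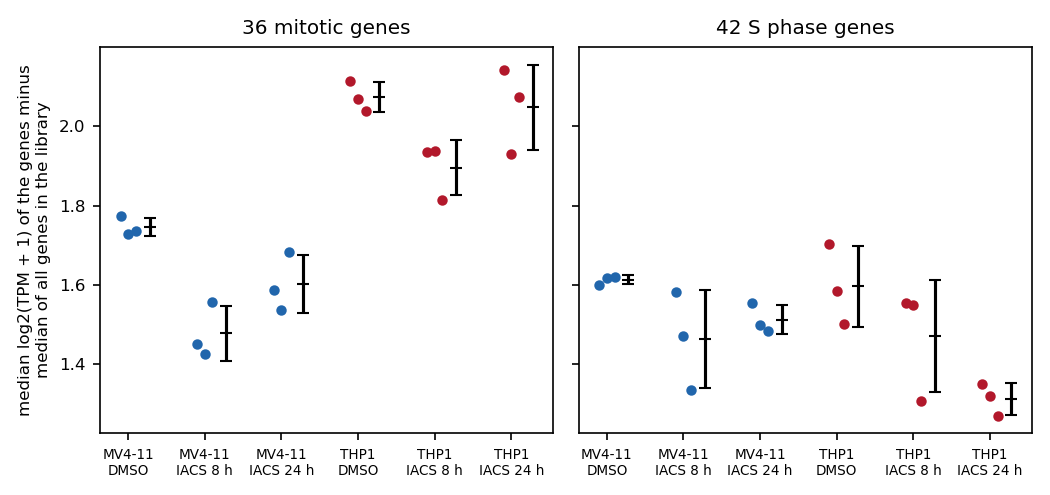
Median log2(TPM + 1) of the 36 mitotic genes (left) and the 42 S phase genes (right) minus the median of all genes in the same library, with points for libraries (MV4-11 blue, THP1 red) and black bars for the mean and SD of each group of 3. Mitotic genes are lower at 8 h than in DMSO in both lines and in THP1 overlap DMSO at 24 h. S phase genes in THP1 have their lowest mean at 24 h, with libraries of 8 h and 24 h overlapping.

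Further genes of the same processes behaved as follows in the comparisons of IACS with DMSO, with 0 called in each list. Their means and medians are as deposited. On those values most of all genes tested were lower in THP1 at both times, and a minority were in MV4-11. The part of that shift in the counts below was not tested. Of 61 further mitotic genes, 55 and 31 had a lower mean at 8 h and 24 h in MV4-11, and 60 and 55 in THP1. Their extremes were *MKI67* (-0.39) and *NSL1* (0.21) at 8 h in MV4-11, *CENPW* (-0.43) and *TROAP* (0.38) at 24 h in MV4-11, *CDCA3* (-0.49) and *PMF1* (0.0042) at 8 h in THP1, and *CENPM* (-0.68) and *KIF14* (0.098) at 24 h in THP1. Scaled, 33, 15, 16 and 15 of these 61 genes lay wholly below DMSO in that order. Of all genes 12.2%, 13.2%, 6.46% and 16.3% did. Subunits of the anaphase-promoting complex and its partners, which the checkpoint genes act on, had a lower mean for 6 and 8 of 17 genes at 8 h and 24 h in MV4-11, with medians of 0.015 and 0.027, and for 16 of 17 at either time in THP1, with medians of -0.16 and -0.21. Their extremes were *UBE2S* (-0.25) and *ANAPC10* (0.18), *ANAPC15* (-0.16) and *FZR1* (0.18), *FBXO5* (-0.41) and *ANAPC11* (0.080), and *ANAPC2* (-0.50) and *ANAPC16* (0.094), in the same order of comparisons. For 17 condensin and cohesin genes the extremes were *NCAPH* (-0.20) and *STAG2* (0.074), *SMC2* (-0.16) and *NCAPH2* (0.098), *SMC4* (-0.29) and *STAG2* (-0.066), and *SMC1A* (-0.56) and *RAD21* (0.036). For S phase genes they were *UHRF1* (-0.37) and *POLD3* (0.036), *MCM6* (-0.46) and *CDT1* (0.44), *CDC6* (-0.46) and *CDT1* (0.041), and *DUT* (-0.61) and *PRIM1* (-0.067).

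Among 34 regulators of mitotic transcription and entry (33 of them tested in MV4-11), the lowest and highest in the same order were *MYBL2* (-0.31) and *CDKN1A* (0.25), *CDC25A* (-0.42) and *E2F8* (0.29), *CDC25A* (-0.41) and *E2F5* (0.093), and *MYBL2* (-0.91) and *E2F5* (0.37). *MYBL2* encodes B-MYB, which activates promoters of the kind shown above, and its limma adjusted p at 24 h in THP1 was 0.367. Between the untreated lines 7 of 33 regulators were called higher in THP1 and 4 lower, with the largest differences of any list here. Of all genes 15.4% were called higher in THP1 and 16.1% higher in MV4-11, which is the background for every list below as well. *NFYC*, a subunit of NF-Y, was at 17.7 ± 1.598 TPM (SD, n = 3) in MV4-11 and 275 ± 24.9 TPM in THP1 (log2 difference 3.885, limma adjusted p = 3.63e-12). *CDKN2C* (2.85), *LIN9* (1.56), *E2F8* (0.79) and *CKS1B* (0.67) were also called higher in THP1, and those called lower included *CDKN1A* (-2.57), *CDKN1B* (-1.57) and *CDC25B* (-0.99). In the other lists 14 of 61 further mitotic genes were called higher in THP1 and 5 lower, from *KIFC1* (0.95) to *MIS12* (-1.14). For S phase genes it was 7 and 3 of 42, from *MCM3* (1.03) to *PCNA* (-1.56), and for condensin and cohesin 2 and 1 of 17, with *NCAPD3* (0.95), *SMC4* (0.74) and *NCAPD2* (-0.77). The counts of these last lists were near or below the background shares. Of the anaphase-promoting complex, *FBXO5* (0.72) was called higher and 0 of 17 lower. *KIF4B*, an intronless copy of *KIF4A*, was at 0.018 to 0.17 TPM over the 18 libraries, and the antisense gene *HMMR-AS1* was listed at 0. Reads of *KIF4A* and *HMMR* could be shared with these genes.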

How the data were processed

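RNA from 18 libraries was, per the study's methods, prepared with an Illumina TruSeq kit, read on an Illumina sequencer and mapped to GRCh38. A strand setting is not given in the sources used here. The deposited values are TPM, which the authors made with CLC Genomics Workbench 20. TPM keep no depth, so no counting interval or detection limit is given. A gene was tested where its mean in the libraries of a fit reached 1 TPM, by limma 3.58.1 (R 4.3.3) with an intensity trend on log2(TPM + 1), a scale on which low genes' changes are understated. Each line's 9 libraries were fitted together, and all 18 for the lines and the interactions. A call needed an adjusted p (Benjamini-Hochberg over all genes tested) under 0.05 and a change of more than 1.5-fold. The p-values measure the spread between these libraries. The 3 lowest and 3 highest of the 36 genes were named in each comparison, with others chosen after their values were seen. The genes and lists were chosen with earlier results of these data known.

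Same-numbered libraries paired, by a correlation of deviations over 0.1 in each of 3 numbers, for THP1 at 24 h (0.146, 0.157 and 0.324), for 24 h against 8 h in MV4-11 (0.11, 0.408 and 0.441) and in THP1 (0.183, 0.277 and 0.357), and not elsewhere. Alternatives were no fold threshold, unadjusted p, median-of-ratios scaling, a replicate block, other filters and pseudocounts, and leaving out the 5 abundant noncoding RNAs or each library. Of these, 4 that joined scaling with no fold threshold or with groups that do not overlap were added after seeing the data. The fit was tested on simulated data. Promoter windows came from RefSeq, gene positions from GENCODE release 44, and figures from Python 3.11.15 with matplotlib 3.10.9.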

Additional observations from a re-analysis of the deposited data

How the results depend on the processing

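In the 8 comparisons of times and responses the count of called mitotic genes was 0, and it stayed at 0 to 0 when any 1 library was left out. With median-of-ratios scaling and no fold threshold it was 1 for MV4-11 at 8 h and 1 for MV4-11 at 24 h. For THP1 it was 1 at 24 h and 2 at 24 h against 8 h. All genes called there numbered 5, 409, 560 and 468. With the replicate block as well the mitotic count was 1, 1, 1 and 4, and 3 for the difference between lines at 24 h, where 5, 1128, 2072, 1708 and 436 of all genes were called. By groups that do not overlap after scaling it was 29, 12, 8, 17, 4 and 10 for MV4-11 at 8 h, at 24 h and between them, and for THP1 likewise. All genes that did not overlap numbered 2841, 3344, 1444, 1815, 3827 and 3633. For THP1 at 24 h the mitotic count was 1 with the replicate block, 1 with unadjusted p and 1 by groups that do not overlap as deposited. There 296, 307 and 237 of all genes were called. The block changed no other call at the stated size. Between the untreated lines the 10 calls became 16 with no fold threshold, 23 with scaling as well, 26 with the block as well and 30 by groups that do not overlap after scaling, where 5613, 7787, 8567 and 8652 of all genes were called, and 6 to 14 without 1 library. They were 6 without MV4-11 DMSO replicate 3, and without that library *CENPE* lost its call at 0.537. Without THP1 DMSO replicate 1 *CENPE* lost it at 0.498 and *CENPA* gained one at -0.589.

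Signs of small differences reversed. In THP1 at 8 h *CCNB2* was at 5.34e-06 and *CDC20* at 0.026 with scaling, and *CDC20* at 0.00152 without the 5 abundant noncoding RNAs. The cause was not tested.
Leaving out each library in turn, the log2 differences whose sign reversed ranged as follows. For MV4-11 8 h the range was *AURKB* -0.299 to 0.0179 and *KIF2C* -0.262 to 0.00037. For MV4-11 24 h the range was *AURKB* -0.0508 to 0.199 and *KIF2C* -0.0253 to 0.195. For MV4-11 24 h against 8 h the range was *SPC25* -0.195 to 0.232 and *PTTG1* -0.0478 to 0.275. For THP1 8 h the range was *CDC20* -0.244 to 8.59e-06. For THP1 24 h the range was *DLGAP5* -0.12 to 0.16, *ASPM* -0.0659 to 0.168 and *CENPE* -0.0893 to 0.203. For THP1 24 h against 8 h the range was *SPC25* -0.287 to 0.0684, *CDC20* -0.205 to 0.0521 and *PLK1* -0.27 to 0.146. For the difference between lines at 8 h the range was *PLK1* -0.0503 to 0.315 and *MAD2L1* -0.00763 to 0.278.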
